A study of Mus musculus with 474 samples.

Results

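The proteasome is the protease complex that degrades ubiquitin-tagged proteins, and its subunit genes were examined in skeletal muscle of Diversity Outbred (DO) mice, an outbred stock derived from several inbred founder strains. The genes were taken by symbol: every deposited gene named Psma, Psmb, Psmc or Psmd followed by a number, which gave 39 of the 20612 genes in the table. They were described in every library of the series, 1 per animal. The sample names carry the sex and the number 17, 18, 19, 21 or 23, read here as the breeding generation (the study's text names 18, 19 and 21 only), which gave 10 groups: 48, 45, 49, 46 and 47 females and 46, 48, 50, 47 and 48 males in the order of generations. All animals shared the same treatment, a high-fat, high-sugar diet labelled as 45 percent fat, and were harvested as adults of one age. No untreated group and no animals on another diet were analysed here, and each animal is genetically unique, so that the spread within a group held genetic as well as technical differences.

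A proteasome consists of a barrel-shaped core particle and of regulatory particles that cap it. The core holds outer rings of alpha subunits (the Psma genes) and inner rings of beta subunits (the Psmb genes), and only Psmb5, Psmb6 and Psmb7 of the constitutive beta subunits carry the active sites. Interferon and other immune signals induce Psmb8, Psmb9 and Psmb10, which take the places of Psmb5, Psmb6 and Psmb7 in newly assembled cores and form the immunoproteasome, known for cutting peptides that suit presentation on class I molecules. In the regulatory particle the ATPases (the Psmc genes) unfold the substrate, and the non-ATPase subunits of the base and the lid (most Psmd genes) bind and remove ubiquitin. The symbols do not separate subunits from helpers: Psmd5, Psmd9 and Psmd10 are chaperones that assist assembly of the base and leave it afterwards. In skeletal muscle the ubiquitin-proteasome system is the main route by which myofibrillar proteins are broken down during atrophy.

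Library totals ranged from 35.9 to 165.7 M (mega) expected read counts, with a median of 79.3 M. Markers of skeletal muscle were high in every library: the 6 genes of a muscle list summed to between 84051 and 180622 CPM (counts-per-million of the scaled library total) in females and between 89497 and 164750 CPM in males. In 5 libraries, 3 labelled female and 2 labelled male, the sex-linked transcripts went against the labelled sex. These libraries were kept, and results are given without them where that matters. Libraries with consecutive numbers formed 5 blocks of 91 to 96, which the labels do not call batches. In 30 libraries 4 B-cell marker genes summed to over 5 CPM, a limit set after seeing the data, against a median of 0.31 CPM in each sex.

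Sequence upstream of the gene starts is shown for Psmb8 and Psmb9, the inducible subunits that differed most, and for Psmb5 and Psmb6, which they replace. RefSeq (GRCm38.p6) gave promoter entries for 32 of the 39 genes, and the 250 bases before the listed start were searched on both strands for 3 short motifs: the core of an interferon response element (TTCNNTTTC), a gamma interferon activation site (TTCNNNGAA) and the core of an antioxidant response element (TGACNNNGC), the last being the kind of element that Nrf1 (Nfe2l1) and Nrf2 bind in proteasome genes. These motifs do not overlap in the stretches shown. The interferon core stood in 7.13% of all 32851 promoter entries, the gamma site in 7.02% and the antioxidant core in 10.2%. Among the members, the gamma site was found for 1 of 32 genes, Psmb8, from position -97 to -89 of the RefSeq start, which lies inside the deposited gene. The antioxidant core was found for 5 genes, Psmb5 (-47 to -39), Psmb6 (-9 to -1), Psmc6, Psmd9 and Psmd12, and the interferon core for 3 genes, Psmb3, Psmd4 and Psmd9. The RefSeq start of Psmd9 lies 58777 bases from that of the deposited gene. A match describes these letters and no binding. In the sequences that follow, capitals mark the gamma site in Psmb8 and the antioxidant core in Psmb5 and Psmb6. In Psmb9 they mark the 25 bases that lie past the start of the adjacent gene Tap1, a peptide transporter subunit whose transcript runs the opposite way.
Psmb8 (chr17:34197945-34198194, + strand): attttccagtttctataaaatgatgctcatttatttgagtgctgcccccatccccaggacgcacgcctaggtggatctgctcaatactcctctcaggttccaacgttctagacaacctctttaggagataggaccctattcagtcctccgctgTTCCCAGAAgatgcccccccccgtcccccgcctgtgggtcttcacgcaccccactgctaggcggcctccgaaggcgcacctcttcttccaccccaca
Psmb9 (chr17:34187331-34187580, - strand): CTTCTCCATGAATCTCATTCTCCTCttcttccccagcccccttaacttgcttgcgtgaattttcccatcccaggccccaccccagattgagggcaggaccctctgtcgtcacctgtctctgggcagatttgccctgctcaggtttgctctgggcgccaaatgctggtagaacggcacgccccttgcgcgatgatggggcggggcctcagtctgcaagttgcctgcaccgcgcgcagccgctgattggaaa
Psmb5 (chr14:54617996-54618245, - strand): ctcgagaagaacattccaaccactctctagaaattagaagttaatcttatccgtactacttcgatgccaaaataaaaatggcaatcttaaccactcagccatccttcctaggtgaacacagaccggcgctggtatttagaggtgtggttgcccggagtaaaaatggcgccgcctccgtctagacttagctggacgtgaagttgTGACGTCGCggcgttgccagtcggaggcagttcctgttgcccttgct
Psmb6 (chr11:70525107-70525356, + strand): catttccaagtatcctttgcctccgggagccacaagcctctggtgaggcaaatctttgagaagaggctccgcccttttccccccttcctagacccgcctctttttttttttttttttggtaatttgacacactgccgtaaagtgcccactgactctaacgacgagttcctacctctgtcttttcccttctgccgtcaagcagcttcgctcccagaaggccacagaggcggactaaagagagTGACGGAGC

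The inducible subunits were expressed at a low level in this muscle, far below the constitutive subunits they can replace. Per kilobase of exon, the median level was 0.729 CPM for Psmb8, 0.23 CPM for Psmb9 and 2.32 CPM for Psmb10. The constitutive counterparts stood at 55.6 CPM per kilobase for Psmb5, 37.3 for Psmb6 and 40.5 for Psmb7. All 31 core and regulatory-particle subunits that passed the filter on low counts, the inducible ones aside, had medians between 12.8 and 65.3 CPM per kilobase, with Psmd2, a scaffold of the base, at the top and Psmd13, a lid subunit, at the bottom. The 3 assembly chaperones were also low, from 1.19 (Psmd9) to 3.54 CPM per kilobase (Psmd10), so that Psmb10 lay among them and Psmb8 and Psmb9 below. The exon length used exceeded that of the longest coding transcript for many genes (3421 against 1160 bases for Psmb7, 7248 against 2597 for Psmd9). The order of genes per kilobase, that of Psmb10 among the chaperones included, therefore depends on the length used. The filter left 37 of the 39 genes. Psma8, the testis form of an alpha subunit, and Psmb11, the thymus form of Psmb5, did not pass it, each with a median of 2 counts. Reads shared with overlapping genes make some values uncertain: Psmb8 shares exon bases with Gm20496, Psmb9 with Tap1, Psma4 with AY074887, Psmb7 with Nek6, Psmc3 with Slc39a13, Psmd1 with Gm21972 and Htr2b, Psmd3 with Gm12356 and Psmd13 with Sirt3, and use of strand in the counting was not given in the sources used here.

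**Figure D1:**
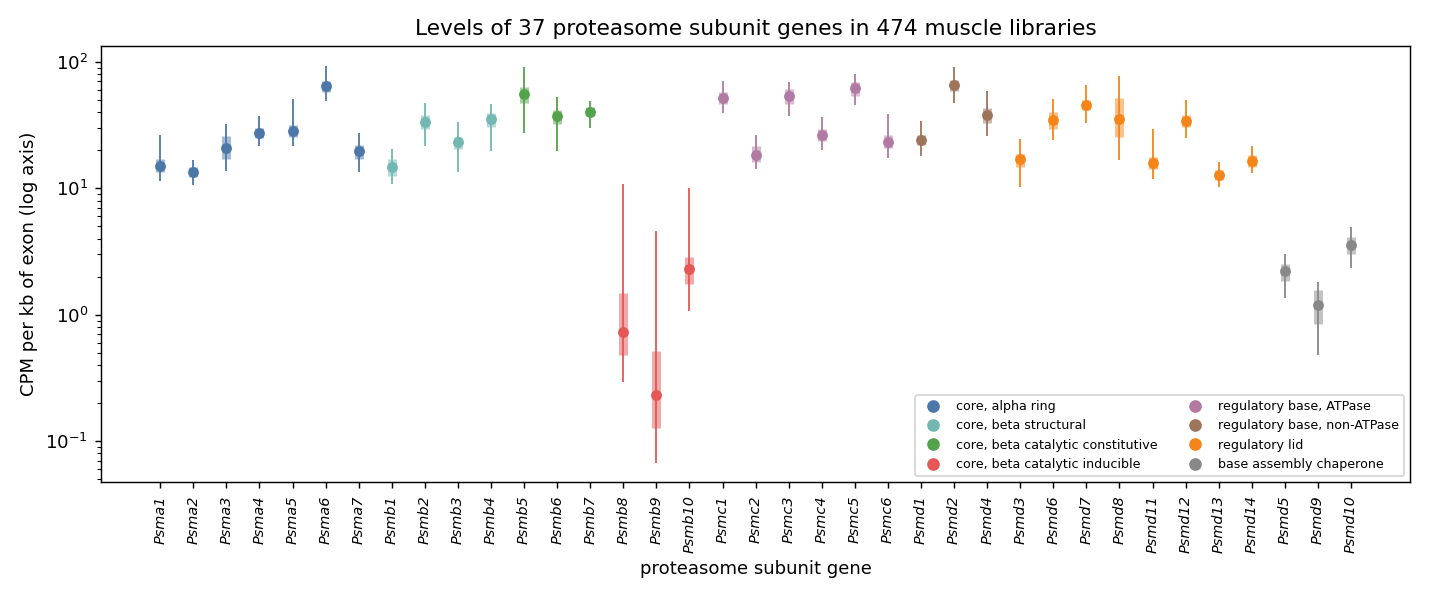
Level of the 37 genes that passed the filter, in CPM per kilobase of exon on a log axis; points are medians over all libraries, thick bars span the 10th to the 90th percentile and thin lines the lowest to the highest library, coloured by structural class. Psmb9 and Psmb8 had the lowest medians, at 0.23 and 0.729 CPM per kilobase, and Psmb10, at 2.32, lay among the assembly chaperones.

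Psmb8 and Psmb9 varied far more between animals than the rest of the complex, and Psmb10 had a long upper tail without a wide spread overall. Psmb8 ranged from 0.991 to 36.5 CPM with a median of 2.47 CPM, so that the highest animal was 14.8 times the median. Psmb9 ranged from 0.248 to 16.7 CPM around a median of 0.843 CPM, and Psmb10 from 1.83 to 17.1 CPM around 3.96 CPM. The constitutive counterparts ranged less in proportion to their medians: Psmb5 from 24.4 to 82.03 CPM (median 50.02 CPM), Psmb6 from 37.1 to 98.3 CPM (median 69.8 CPM) and Psmb7 from 102.7 to 169.2 CPM (median 138.4 CPM). After sex and generation were removed, the standard deviation (SD) of log2 CPM across animals was 0.70 for Psmb8, 0.83 for Psmb9 and 0.33 for Psmb10. Over the other 34 genes it had a median of 0.15 and ran from 0.10 to 0.35, and over all 18823 genes tested the median was 0.38. Psmb10 was thus below Psmd9, the highest of the 34 at 0.35, and below the median gene, and its 90th percentile was 1.63 times its 10th, against 2.06 times for Psmd8 and 3.08 and 4.10 times for Psmb8 and Psmb9. The SD that counting error alone would give was 0.09 for Psmb8, 0.15 for Psmb9 and 0.08 for Psmb10. Residuals of the inducible genes were skewed upward (skewness 1.40 for Psmb8, 0.96 for Psmb9 and 1.37 for Psmb10), whereas those of Psmb5 and Psmb6 were skewed downward (-1.52 and -1.23).

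The animals at the top of the range were largely shared among the inducible subunits and little with the constitutive ones. Of the 24 animals in the highest 5% for Psmb8, 22 were also in the highest 5% for Psmb9 and 15 for Psmb10, but 1 for Psmb5, 1 for Psmb6 and 0 for Psmb7. Of the 24 highest for Psmb10, 3 were shared with Psmb5, 2 with Psmb6 and 0 with Psmb7. The 24 animals highest for Psmb8, each at 7.52 CPM of Psmb8 or more, comprised 18 females and 6 males. Their libraries differed in what else they contained. The highest animal, the female DO191 of generation 18, had 36.5 CPM of Psmb8, 16.7 CPM of Psmb9 and 12.4 CPM of Psmb10, together with 168.6 CPM summed over the 4 B-cell markers and 429.7 CPM summed over 19 interferon-response genes. The second, the female DO326 of generation 21, had 20.9 CPM of Psmb8 and 14.7 CPM of Psmb10 with 0.275 CPM of B-cell markers and 6341 CPM of interferon-response genes. Its Psmb5 level, 24.4 CPM, was the lowest of all libraries. The male DO094 of generation 17, highest for Psmb10 at 17.1 CPM, likewise had 0.125 CPM of B-cell markers and 1034 CPM of interferon-response genes. Among the 10 highest animals for Psmb8, 5 had at least 25.5 CPM of B-cell markers and the other 5 had at most 0.857 CPM. High expression of the inducible genes was thus found both with and without high B-cell markers. T-cell markers summed to 0.415 to 4.18 CPM in the 5 animals of low B-cell markers, against medians of 0.655 CPM in females and 0.511 CPM in males, and general leukocyte markers to 14.9 to 37.4 CPM, against medians of 11.2 and 10.6 CPM. In bulk tissue a larger share of a cell type and more RNA per cell cannot be told apart.

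**Figure D2:**
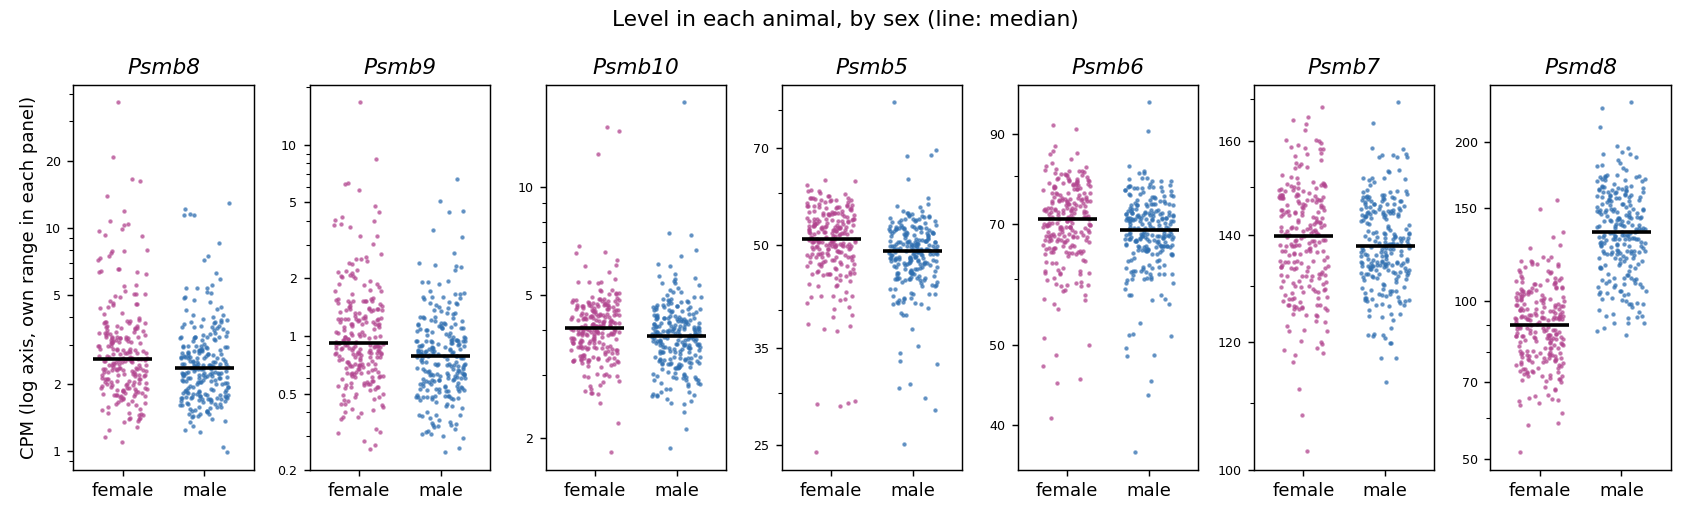
CPM of the inducible subunits, their constitutive counterparts and Psmd8 in each animal, by sex, on log axes with a range of their own in each panel; black lines are medians. Psmb8, Psmb9 and Psmb10 have long upper tails in both sexes, and for Psmd8 the males (median 135.2 CPM) lie mostly above the females (median 89.8 CPM).

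The first comparison asked whether the sexes differed, with generation in the model. It found 1 large difference, in the lid subunit gene Psmd8, a reduction of the inducible subunits in males, and small shifts of either sign elsewhere. Females had 51.6 to 155.4 CPM of Psmd8 with a median of 89.8 CPM, and males had 85.9 to 237.7 CPM with a median of 135.2 CPM. The ranges overlapped, but 98.7% of males lay above the female median and 60 males above the highest female. The fitted level in males was 1.51-fold that in females (log2 difference 0.59, SE 0.02, edgeR quasi-likelihood adjusted p = 2.7e-82). The difference was called within each of the 5 generations (log2 from 0.53 to 0.67) and within each of the 5 library blocks (0.51 to 0.65), and was 0.60 without the 5 libraries that went against their labelled sex. Psmd8 encodes the lid subunit Rpn12, whose incorporation completes the lid. The gene 3.777 kb away, Spred3, an inhibitor of MAP kinase signalling picked after its value was seen, was also higher in males (log2 0.62, SE 0.05, adjusted p = 5.8e-31), while its residual correlation with Psmd8 over animals was -0.06. The nearer genes Ggn (0.212 kb away, log2 0.10, adjusted p = 0.162) and Catsperg1 (0.62 kb, log2 -0.01, adjusted p = 0.946) did not pass. No other lid subunit differed by more than 0.11 on the log2 scale.

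Over all members, 20 of 37 passed the threshold of 0.05 for sex, against a background of 55% of all genes tested. Sex differences were thus about as common among the members as among all genes tested. Among genes with a mean of at least 5 CPM, 19 of 34 members passed, where 66.1% of all genes did. Of the 20 members 8 were higher in males, where 24.4% of all genes were, and 12 were lower, where 30.6% of all genes were. Sizes were small: the median absolute log2 difference over the members was 0.03, against 0.09 over all genes, and apart from Psmd8 and the inducible genes the largest was 0.11. The split by direction depended on the scaling of the libraries. With total counts in place of TMM scaling 1 member was higher and 21 were lower in males, while the median log2 difference over all genes moved from -0.01 to -0.05. Only Psmd8 was called higher under both scalings, and shifts near 0.05 are therefore given as values of the TMM scale.

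Among the core subunits, Psma1 (log2 -0.06, SE 0.01, adjusted p = 7.4e-05) and Psma2 (-0.03, SE 0.01, adjusted p = 0.0021) of the alpha ring were lower in males, and Psmb2, a beta subunit without an active site, was higher (0.05, SE 0.01, adjusted p = 0.000338; 0.02 with total counts, where it was not called). Of the constitutive catalytic subunits, Psmb5 was lower in males by 0.06 (median 51.1 CPM in females and 48.98 CPM in males, adjusted p = 0.000894) and Psmb6 by 0.04 (70.99 and 68.9 CPM, adjusted p = 0.0132). Psmb7 had 139.8 CPM in females and 137.7 CPM in males (log2 -0.01, 95% interval -0.03 to 0.01, adjusted p = 0.337), and was called lower, at -0.04, with total counts. In the regulatory particle, the ATPase Psmc5 was lower in males, with a median of 89.6 CPM in females and 83.2 CPM in males (log2 -0.11, SE 0.01, adjusted p = 7.9e-18), and was called within all 5 generations and all 5 blocks. The ATPase Psmc6 was lower by 0.05 (adjusted p = 0.000407). The lid subunit Psmd6 was lower by 0.11 (99.6 and 93.5 CPM, adjusted p = 9.3e-11). The 3 non-ATPase base subunits, Psmd1, Psmd2 and Psmd4, lay between 0.00 and 0.03 and none passed. Of the assembly chaperones, Psmd9 was lower by 0.08 (adjusted p = 0.0291) and Psmd10 was higher by 0.05 (adjusted p = 0.0071), which was 0.02 and not called with total counts.

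**Figure D3:**
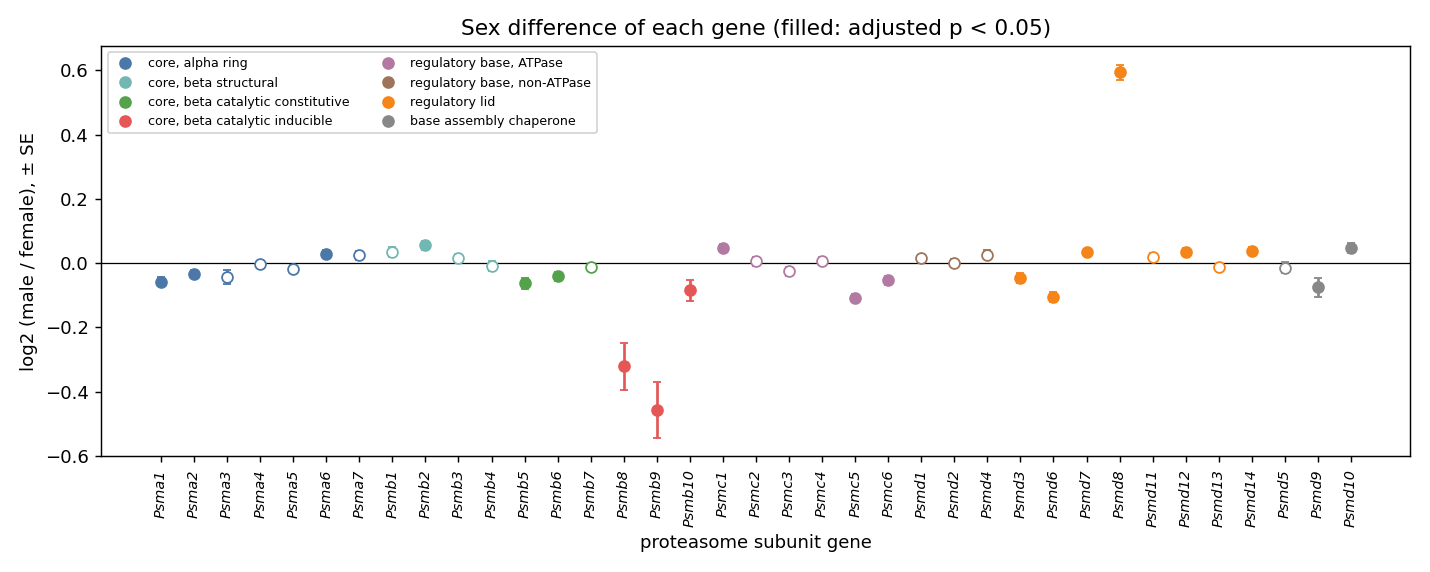
Fitted log2 difference between males and females for each gene, with its SE; positive values are higher in males, filled points passed the adjusted threshold of 0.05 and colours give the structural class. Psmd8 stands at 0.59 above the rest, Psmb9 at -0.46 and Psmb8 at -0.32 below, and the other genes within 0.11 of 0.

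The inducible subunits were lower in males, most for Psmb9. Psmb9 had a median of 0.917 CPM in females (0.257 to 16.7 CPM) and 0.782 CPM in males (0.248 to 6.66 CPM), with a fitted log2 difference of -0.46 (SE 0.09, adjusted p = 1.1e-06). Psmb8 had 2.59 CPM in females (1.10 to 36.5 CPM) and 2.35 CPM in males (0.991 to 12.96 CPM), with a difference of -0.32 (SE 0.07, adjusted p = 5e-05). Psmb10 had 4.05 CPM (1.83 to 14.7 CPM) and 3.85 CPM (1.88 to 17.1 CPM), with a difference of -0.08 (SE 0.03, adjusted p = 0.0213). The groups overlapped almost fully: 39.7% of males exceeded the female median of Psmb8, 34.3% that of Psmb9 and 38.1% that of Psmb10. Within library blocks all 3 genes were lower in males in each of the 5 blocks, from -0.53 to -0.08 for Psmb8, from -0.76 to -0.19 for Psmb9 and from -0.20 to -0.01 for Psmb10, of which 1, 1 and 0 passed within a block. Within generations they were lower in males in 4 of 5 and at 0.08, 0.01 and 0.06 in generation 19, with 1, 2 and 1 passing.

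Lymphocyte transcripts moved with this difference. All 4 B-cell markers were lower in males (median log2 -1.90), as were all 5 T-cell markers tested (-1.65) and all 5 general leukocyte markers (-0.96). The B-cell markers summed to 0.018 to 168.6 CPM in females and 0.034 to 59.4 CPM in males with a median of 0.31 CPM in each, and the T-cell markers to 0.061 to 90.1 CPM (median 0.655 CPM) and 0.061 to 35.1 CPM (median 0.511 CPM). Over 5 CPM of B-cell markers were found in 21 female libraries (8.94%) and 9 male libraries (3.77%). Without these 30 libraries the log2 difference was -0.11 for Psmb8 (adjusted p = 0.120), -0.22 for Psmb9 (adjusted p = 0.0101) and -0.06 for Psmb10 (adjusted p = 0.136), so that Psmb9 alone stayed past the threshold. With B-cell and T-cell marker scores as covariates the values were -0.06 (adjusted p = 0.369), -0.16 (adjusted p = 0.0444) and -0.02 (adjusted p = 0.577). Other markers moved with sex as well: 6 of 7 adipocyte markers were lower and 1 was higher in males (median log2 -0.54; sums of 90.1 to 1301 CPM in females and 101.8 to 712.4 CPM in males), and all 7 slow-fibre markers were lower (-0.51; 573.3 to 9224 CPM and 821.9 to 7590 CPM). All 5 endothelial markers were higher (median 0.13), as were 3 of 5 erythroid markers with 0 lower (median of the list 0.21). Of 9 macrophage markers 1 was lower and 0 higher (-0.04), and of 6 fibroblast markers 2 were higher and 3 lower (-0.08). With scores for slow fibres, adipocytes, macrophages and leukocytes as covariates none of the 3 passed: Psmb8 was at 0.00 (adjusted p = 0.999), Psmb9 at -0.12 (adjusted p = 0.208) and Psmb10 at -0.02 (adjusted p = 0.624). These scores entered together, and the part of each was not tested. With a score of the interferon-response genes all 3 passed, at -0.28, -0.40 and -0.09. Psmd8 was at 0.59 without the 30 libraries and at 0.58 with the lymphocyte scores.

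The balance within each pair of catalytic subunits was compared as the log2 ratio of CPM, inducible over constitutive, in each animal. The ratio of Psmb8 to Psmb5 averaged -4.10 ± 0.84 (SD over all females) in females and -4.25 ± 0.62 (SD over all males) in males, a difference of -0.16 (SE 0.07, permutation p = 0.0202, adjusted over 3 ratios p = 0.0243). The ratio of Psmb9 to Psmb6 averaged -6.06 ± 0.95 and -6.37 ± 0.78, a difference of -0.31 (SE 0.08, permutation adjusted p = 0.00051). For Psmb10 to Psmb7 the means were -5.09 ± 0.38 and -5.16 ± 0.35, a difference of -0.08 (SE 0.03, permutation adjusted p = 0.0243). Each of these tests was two-sided and shuffled sex within generation. All 3 differences were smaller than the SD within a sex. The call for Psmb10 to Psmb7 was lost on the deposited score (-0.0477, adjusted p = 0.0675) and with block means removed (-0.0638, adjusted p = 0.051), and that for Psmb8 to Psmb5 on the deposited score (-0.0928, adjusted p = 0.0675) and on ranks (adjusted p = 0.0927), all by the same permutation test. Without the 30 libraries of high B-cell markers the differences were -0.04 (adjusted p = 0.487), -0.19 (adjusted p = 0.0297) and -0.04 (adjusted p = 0.261), and with lymphocyte scores removed 0.00, -0.13 and -0.02, none of which passed.

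Genes that work with the proteasome were counted by lists, to be read against the 24.4% of all genes that were higher and the 30.6% that were lower in males. Of 5 activators and inhibitors, 3 were higher and 1 lower in males: Psme4, the activator PA200, was higher by 0.21 (adjusted p = 2.3e-25) and Psme1, a subunit of the interferon-inducible activator PA28, by 0.13 (adjusted p = 8.6e-07). The gene lower in males was Psme2, the other subunit of PA28, at -0.06 (adjusted p = 0.0109). Of 5 chaperones that assemble the core, Psmg4 alone passed, at 0.20 (adjusted p = 9.1e-06). Of 6 tested genes for proteins that associate with the complex, the deubiquitinase Uchl5 was lower by 0.18 (adjusted p = 1.8e-22), and the ubiquitin receptor Adrm1 was higher by 0.05 (adjusted p = 0.0070, not called higher with total counts). Of 5 regulators of proteasome genes 4 were higher, among them Ngly1, which activates Nrf1 by removing its sugars, at 0.11 (adjusted p = 2.4e-15), and Nfe2l1 itself at 0.09 (adjusted p = 2e-07). Of 10 ubiquitin and shuttle genes 2 were higher and 3 lower, led by Rps27a at -0.18 (adjusted p = 1.9e-36) and Rad23b at 0.08 (adjusted p = 9.9e-08). Of 8 muscle ubiquitin ligases 3 were higher and 3 lower, led by Fbxo31 at -0.43 (adjusted p = 5.4e-55) and Trim63, the atrophy ligase MuRF1, at -0.29 (adjusted p = 9.1e-06). Of 11 genes of class I presentation 7 were lower and 0 higher (median -0.09), led by Nlrc5, the activator of class I genes, at -0.51 (adjusted p = 5.8e-05) and Tap1 at -0.36 (adjusted p = 0.000297). Tap2 (0.02, adjusted p = 0.748), B2m (-0.08, adjusted p = 0.124), H2-D1 (-0.01, adjusted p = 0.926) and Pdia3 (-0.01, adjusted p = 0.595) did not pass. The B-cell (median log2 -1.90), T-cell (-1.65) and leukocyte (-0.96) markers were lower in males in the same libraries, and their part in the class I difference was not tested. Of 19 interferon-response genes 3 were higher and 6 lower (median -0.12), led by Cxcl9 at -0.50 (adjusted p = 0.000474) and Ifit1 at 0.32 (adjusted p = 2.3e-05). The median over all genes tested was -0.01. With total counts in place of TMM scaling the numbers higher and lower in males became 2 and 1 for the activators, 1 and 3 for the core chaperones, 0 and 4 for the associated proteins, 3 and 0 for the regulators, 1 and 5 for ubiquitin and shuttles, 2 and 4 for the ligases, 0 and 9 for class I presentation and 2 and 7 for the interferon response.

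The second comparison was between generations, with sex in the model. Of the members 1 of 37 passed, where 7.56% of all genes did, a count too small to set the members apart from genes at large. This was Psmd2, whose generation means spanned 0.06 on the log2 scale, highest in generation 21 and lowest in 23 (adjusted p = 0.0370). At an unadjusted p below 0.05 there were 4 members, where 19.8% of all genes were, and the median span over the members was 0.04, against 0.11 over all genes. Psmd2 was not called with total counts (adjusted p = 0.0617) or without the filter (adjusted p = 0.0505). The inducible subunits had the largest spans, 0.37 for Psmb8 (adjusted p = 0.136), 0.32 for Psmb9 (adjusted p = 0.454) and 0.13 for Psmb10 (adjusted p = 0.433), none past the threshold. Median Psmb8 was 2.55, 2.40, 2.34, 2.42 and 2.75 CPM in generations 17, 18, 19, 21 and 23, and its 90th percentile was 5.88, 3.62, 3.88, 7.29 and 5.19 CPM. Of the 3 ratios none passed by generation (permutation adjusted p = 0.150, 0.198 and 0.270), but that of Psmb8 to Psmb5 passed on ranks (permutation adjusted p = 0.0267), with lymphocyte scores removed (0.0476) and without the 30 libraries of high B-cell markers (0.0246). Without the 30 libraries of high B-cell markers 3 of 37 members passed, where 8.23% of all genes did. Psmb8 (span 0.42, adjusted p = 0.0040) and Psmb9 (span 0.48, adjusted p = 0.0241) were among them. Of the interferon-response list 10 of 19 genes differed by generation.

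Whether the sex difference varied with generation was tested by an interaction term. No member passed in edgeR, 0 of 37, where 0.531% of all genes did. At an unadjusted p below 0.05 there were 7 members by edgeR and 6 by limma on the deposited score, Psmb8 and Psmb9 among them in both, where 5.97% and 4.62% of all genes were. With total counts there were 3 members (Psma1, Psmb8 and Psmb9), where 6.13% of all genes were. With limma 0 of all 18823 genes passed, so that its count says nothing of the members. Within single generations the male-female difference of Psmb9 ran from -0.97 in generation 21 to 0.01 in generation 19 (interaction adjusted p = 0.355) and that of Psmb8 from -0.71 to 0.08 in the same generations (adjusted p = 0.511). Psmb10 ran from -0.28 to 0.06 (adjusted p = 0.642). Without the 30 libraries of high B-cell markers the interaction passed for 2 of 37 members, where 0.590% of all genes passed. These were Psmb8 (adjusted p = 0.0066) and Psmb9 (adjusted p = 0.0091).

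Library block was tested beside sex and generation. It moved 27 of 37 members, where 47.4% of all genes passed. With the GC slope of each library (a measure described with the correlations) as covariate it again moved 27, where 28.3% of all genes passed. Among genes with a mean of at least 5 CPM it moved 26 of 34 members, where 70.5% of all genes passed, so that the members were near the share of genes of like expression. The spans were modest, with a median of 0.10 over the members against 0.18 over all genes. In block 1 a group of core and lid genes was lowest, among them Psmb5 (span 0.25; median 45.4 CPM in block 1 and 49.4 to 52.8 CPM in the others), Psmb4 (0.24), Psmb3 (0.15), Psmb6 (0.14) and Psma7 (0.13) of the core and Psmd3 (0.17) and Psmd13 (0.15) of the lid. The ATPase Psmc6 had the opposite pattern, highest in block 1 (span 0.19). Psmb10 was lowest in block 1 as well (span 0.30, median 3.42 CPM against 3.96 to 4.29 CPM in the other blocks), while Psmb8 (adjusted p = 0.0895) and Psmb9 (adjusted p = 0.103) did not pass. Psma6 (0.12), Psmc5 (0.10), Psmb7 (0.07) and Psmd1 (0.07) passed with small spans, and none of the 3 assembly chaperones did.

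Across animals the constitutive members moved together. After sex and generation were removed, Pearson correlations of log2 CPM between the 31 core and regulatory-particle genes had a median of 0.40 over all pairs and ran from -0.31 to 0.82, with 450 pairs positive. The median within single library blocks was 0.37 to 0.47. Correlations between genes in the same libraries share library size and RNA quality and are given as a description. The base subunits Psmd2 (r = 0.80 with the mean of the other genes), Psmd4 (0.78) and Psmc1 (0.76) followed the group most closely, and Psma3 (0.18) followed it least. The assembly chaperones hardly took part (median r of 0.08 with the 31 genes). Against the mean of all 31, the 5 other genes most alike in pattern over all libraries were Nsfl1c (r = 0.67), a cofactor of the segregase Vcp, Sqstm1 (0.66), an autophagy receptor for ubiquitin, Cops5 (0.65), the catalytic subunit of the COP9 signalosome, Vcp itself (0.65) and Srp68 (0.64), a subunit of the signal recognition particle. The median over all genes was -0.02.

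**Figure D4:**
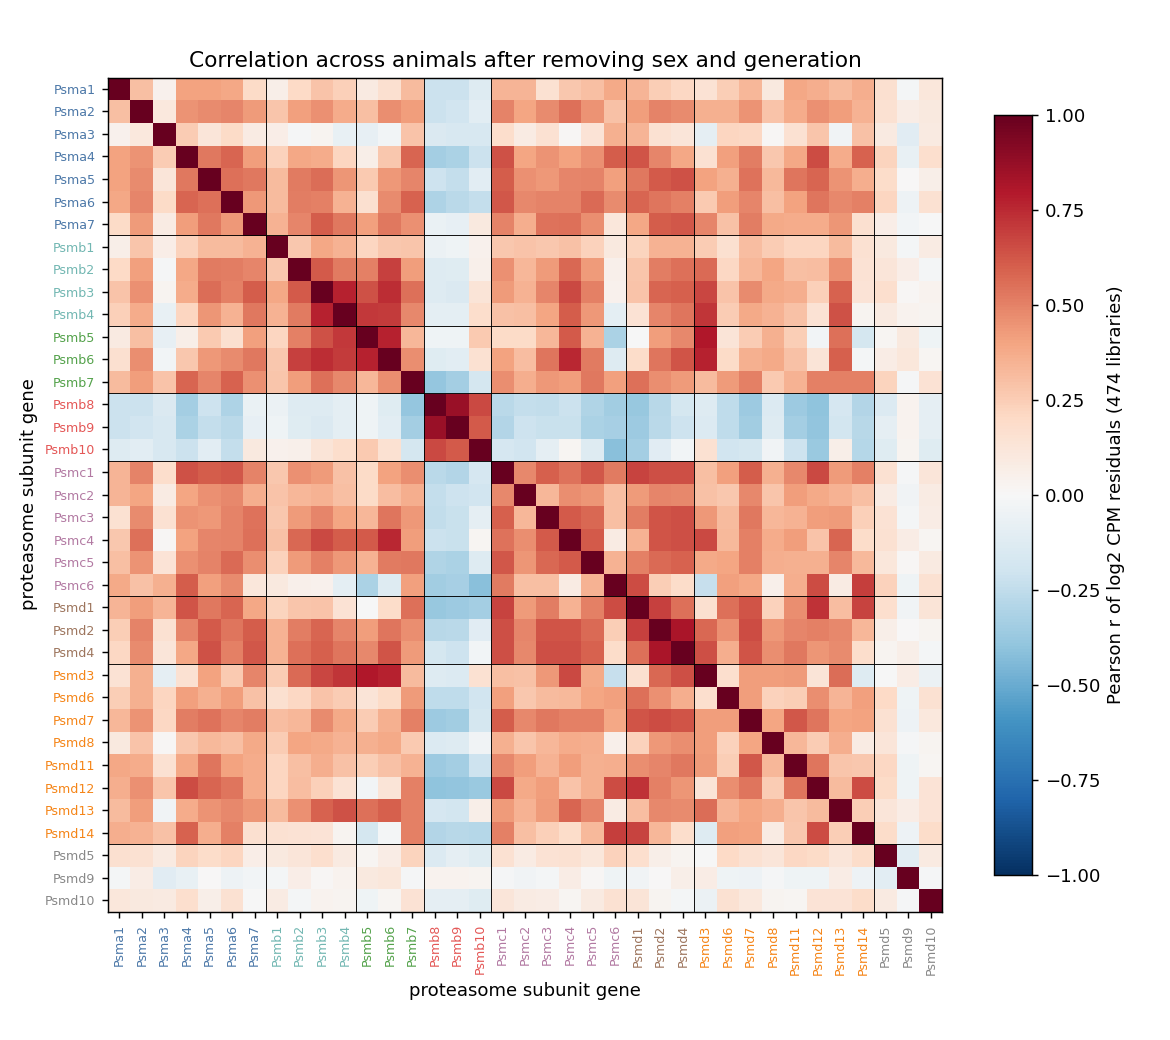
Pearson r between members across all libraries, from log2 CPM after sex and generation were removed; rows and columns are the 37 genes in the order of structural class, red is positive and blue negative. The 3 inducible genes form a block of their own (r from 0.61 to 0.87) that is mostly pale to blue against the others (10 of 93 pairs positive), and Psmc6 is blue against Psmb5 (r = -0.31).

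For 2 constitutive members, Psmb5 and Psmc6, chosen after values were seen, the correlation with the other members was set against base composition. The correlation of each gene with Psmb5 rose with the GC content of its longest coding transcript, from r = -0.31 for Psmc6 (37% GC) to r = 0.80 for Psmd3 (58.3% GC), and across the 30 genes this relation had Pearson r = 0.84 and Spearman rho = 0.87. The correlation with Psmc6 fell with GC content (r = -0.71 over 30 genes). Transcript length gave -0.32 and 0.25. Genes are not independent replicates, and these values are descriptions. A slope of log2 CPM on GC content over 15152 genes was therefore taken in each library. It averaged -0.014 per percent GC in block 1 and between 0.0013 and 0.0051 in the others. With this slope removed as well, all pairs of the 31 genes were positive (median 0.43, from 0.02 to 0.82), and the inducible genes were negatively correlated with all 31 others (93 of 93 pairs, median -0.24).

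The inducible subunits moved with one another and apart from the rest. Psmb8 with Psmb9 gave r = 0.87 (rho = 0.78), Psmb8 with Psmb10 r = 0.66 (rho = 0.53) and Psmb9 with Psmb10 r = 0.61 (rho = 0.47), over all libraries. Each had a permutation p of 1e-05, the smallest that 100000 permutations can give, and passed adjustment over 33 relations. Without the 2 libraries farthest from the median they were 0.85, 0.62 and 0.57, and within single blocks Psmb8 with Psmb9 ran from 0.82 to 0.91. Psmb8 and Psmb9 lie 9.957 kb apart on chromosome 17, and Psmb10 is on chromosome 8. Against the 31 constitutive genes the median r of the inducible ones was -0.19, and 10 of 93 pairs were positive. This sign depended on scaling: with total counts 49 of 93 were positive and the median was 0.02, while without the 30 libraries of high B-cell markers 18 were positive and the median was -0.11.

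Pair by pair, the inducible genes were weakly correlated with the subunits they replace. Psmb8 with Psmb5 gave r = -0.04 (rho = -0.05, permutation p = 0.341, adjusted p = 0.363) and Psmb9 with Psmb6 r = -0.11 (rho = -0.10, permutation adjusted p = 0.0255), which was -0.09 without the 2 farthest libraries and 0.07 with total counts. Psmb10 with Psmb7 gave r = -0.18 (rho = -0.15, permutation adjusted p = 0.00019), -0.13 without the 2 farthest libraries and 0.09 with total counts. Psmb10 was positively related to Psmb5 (r = 0.26, rho = 0.28, permutation p = 1e-05) and Psmb6 (r = 0.15, rho = 0.11, permutation adjusted p = 0.00186), at 0.34 and 0.20 without the 2 farthest libraries, and both were negative with the GC slope of each library removed (-0.0455 and -0.173). Within blocks they ran from -0.20 to 0.29 and from -0.29 to 0.27. Among the catalytic subunits the largest negative relation was Psmb7 with Psmb8 at r = -0.38 (rho = -0.32, permutation p = 1e-05), from -0.54 to -0.33 within blocks, -0.34 without the 2 farthest libraries and -0.11 with total counts. The constitutive subunits were positively related to each other, most for Psmb5 with Psmb6 at r = 0.77 (rho = 0.63, permutation p = 1e-05), from 0.53 to 0.87 within blocks and 0.74 without the 2 farthest libraries.

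The catalytic subunits were also set against a regulator of proteasome genes and a leukocyte marker. Nfe2l1 gave r = 0.32 with Psmb5 and 0.22 with Psmb6 (rho = 0.34 and 0.21, permutation p = 1e-05), 0.31 and 0.21 without the 2 farthest libraries. With Psmb7 it gave r = 0.09 (rho = 0.10, permutation adjusted p = 0.0598), 0.06 without the 2 farthest libraries. With Psmb8 it gave r = -0.21 (rho = -0.14, permutation p = 1e-05), which was -0.17 without the 2 farthest libraries and -0.02 with total counts. Ptprc, the leukocyte antigen CD45, gave r = 0.63 with Psmb8, 0.57 with Psmb9 and 0.30 with Psmb10 (rho = 0.43, 0.42 and 0.13, permutation p = 1e-05 for each r). These were 0.60, 0.53 and 0.29 without the 2 farthest libraries, and 0.35, 0.36 and 0.14 without the 30 libraries of high B-cell markers. Over the same libraries Psmb8 with Psmb9 was 0.82.

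The genes most like the inducible subunits in pattern were genes of class I presentation. For Psmb8 they were Tap1 (r = 0.88), Nlrc5 (0.85), Tap2 (0.84), H2-T23 (0.84) and H2-Q4 (0.82), and for Psmb9 Tap1 (0.85), Nlrc5 (0.82), H2-Q4 (0.80), B2m (0.79) and Tap2 (0.78), over all libraries. Tap1 and Tap2 form the peptide transporter, and B2m is the light chain of class I molecules. Psmb9 shares exon bases with Tap1, so that reads of this pair may be split between them. For Psmb10 the nearest were Tapbp (0.67), which loads peptides, Psme2 (0.66), the other subunit of PA28, Tap2 (0.65) and H2-T23 (0.63).

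**Figure D5:**
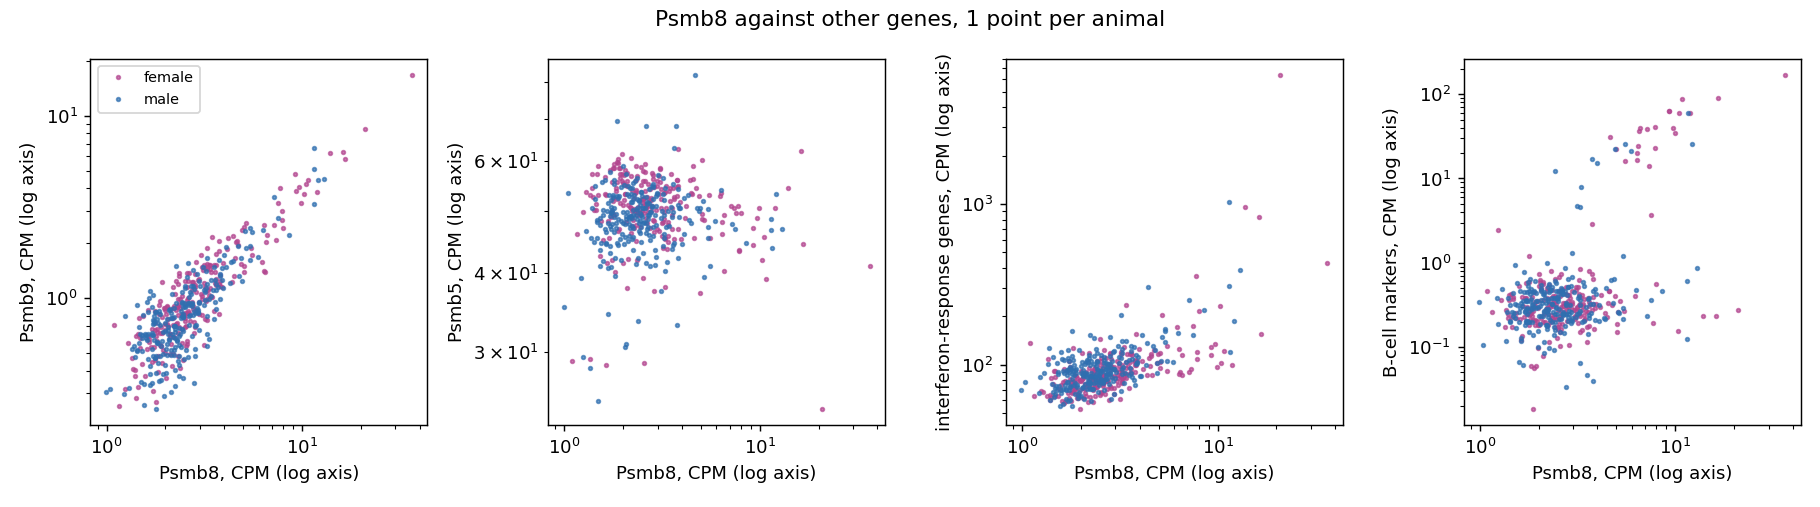
CPM of Psmb8 in each animal (log axis) against Psmb9, Psmb5, the sum of 19 interferon-response genes and the sum of 4 B-cell markers (log axes), females in purple and males in blue. Psmb9 rises with Psmb8, Psmb5 does not, and of the 10 animals highest in Psmb8, 5 have at least 25.5 CPM of B-cell markers and 5 at most 0.857 CPM.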

How the data were processed

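RNA of skeletal muscle was sequenced after polyA selection (KAPA mRNA HyperPrep). The authors joined read pairs, aligned them as single reads to an 8-founder transcriptome and estimated allele-resolved counts by EMASE in GBRS; versions are not given in the sources used here. They deposited expected counts per gene and a variance-stabilised score from DESeq2; the labels give GRCm38. Expected counts were rounded to whole numbers, filtered by filterByExpr (minimum count 10, which left 18823 genes), scaled by TMM and tested with edgeR 4.0.16 quasi-likelihood fits in R 4.3.3, with sex and generation as terms (and library block added to them where block was tested) and Benjamini-Hochberg adjustment over all genes tested. The deposited score was used with limma 3.58.1 as an alternative, as was DESeq2 1.42.0. Log2 CPM for ratios and correlations used a prior count of 2, and their tests shuffled animals 100000 times. The fit was tested on simulated data. No pair of libraries of the same labelled sex and generation was near-identical, and pairs from different groups were not compared. The study's wave covariate was not used here, since the labels do not give it.

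The members and gene lists were chosen with earlier results of these data known. The text names Psmb5 to Psmb10 always, per comparison and structural class the 2 largest differences past the threshold, per gene list the 2 largest past it, and the 5 other genes most correlated with each inducible gene and with the mean of the core and regulatory genes. P-values over animals include genetic differences between them. The alternatives were other scalings and filters, the deposited score, DESeq2, library block, marker scores and the libraries against their labelled sex; those on lymphocyte scores, the 30 libraries over 5 CPM of B-cell markers and GC slope were chosen after seeing the data. Results that need certain withheld genes are not reported here.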

Additional observations from a re-analysis of the deposited data

How the results depend on the processing

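The number of members that differed by sex was 16 to 22 of 37 under the alternatives that tested 37, 20 of 39 without a filter and 19 of 34 at a mean of at least 5 CPM, while 46.6% to 66.1% of all genes passed, and Psmd8 was higher in males in all of them. With total counts in place of TMM, 1 member was higher and 21 were lower in males. For generation, 0 members passed with total counts, where 8.88% of all genes did. Without a filter on low counts 0 passed, where 6.85% of all genes did. Without the 30 libraries of high B-cell markers 3 passed for generation, where 8.23% of all genes did, and 2 for the interaction, where 0.590% did. The sex difference in the ratio of Psmb8 to Psmb5 lost its call on the deposited score (-0.0928), on ranks (-20.9 ranks) and without the 30 libraries (-0.0398), and was 0.00148 with lymphocyte scores removed. That of Psmb9 to Psmb6 lost its call with lymphocyte scores removed (-0.132). That of Psmb10 to Psmb7 lost it on the deposited score (-0.0477), with block means removed (-0.0638), with lymphocyte scores removed (-0.0165) and without the 30 libraries (-0.0439). By generation, the ratio of Psmb8 to Psmb5 passed on ranks (span 69.6 ranks), with lymphocyte scores removed (0.222) and without the 30 libraries (0.282). Correlations changed sign with total counts for Psmb6 with Psmb8 (0.0726), Psmb6 with Psmb9 (0.0699) and Psmb7 with Psmb10 (0.0868), with lymphocyte scores removed for Psmb6 with Psmb8 (0.0182), Psmb6 with Psmb9 (0.0202) and Psmb10 with Ptprc (-0.000577), and with the GC slope removed for Psmb5 with Psmb10 (-0.0455) and Psmb6 with Psmb10 (-0.173). The cause of these changes was not tested. Psma8 and Psmb11 had too few counts for a test.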
